A study of Mus musculus with 8 samples.

Results

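Muscle splicing regulators are RNA-binding proteins that decide which exons of a pre-messenger RNA are kept in muscle cells. The 10 genes described here are Rbm20, Rbm24, Rbfox1, Rbfox2, Celf1, Celf2, Mbnl1, Mbnl2, Qk and Ptbp1. They were found by their gene symbols among the 49315 genes of the raw count table, and all 10 were matched and passed the filter on low counts, which left 16377 genes. The study sequenced RNA of hearts of C57BL/6 mouse embryos at embryonic day 9.5 and compared the sexes. There were 4 female and 4 male libraries, all from the same strain, tissue and age, without treatment or transgene, and each embryo was sexed by genotyping Sry in tissue other than the heart. Whether each library came from 1 heart or from a pool was not stated in the labels, so p-values here speak of differences among libraries that could be technical.

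In the developing heart, splicing regulators switch sarcomere, channel and cytoskeletal transcripts from embryonic to adult forms. Rbm20 keeps exons of the giant sarcomere gene Ttn out of the mature message, and Rbm24 promotes the inclusion of many muscle exons. Rbfox proteins bind the RNA letters UGCAUG, Celf proteins bind GU-rich RNA, Mbnl proteins bind UGC-containing stretches, Qk binds through a STAR domain, and Ptbp1 binds pyrimidine-rich RNA and holds back muscle and neuronal exons. Celf and Mbnl proteins act on many of the same exons in opposite directions, and after birth Celf protein falls while Mbnl activity rises. Counts per gene give the abundance of each regulator's RNA and do not show which exons were used.

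Total counts ran from 20105913 to 51134291 per library. Cardiomyocyte genes were abundant in every library, with the 12 markers summing to 42682 to 54765 CPM (counts scaled to a common library total with TMM factors) in females and 46666 to 74710 CPM in males. Of 7 skeletal muscle markers, the defining Myf5, Myod1, Myog, Pax3 and Pax7 had 0 counts in at least 1 library each. The remaining markers, Acta1 and Ckm, ran from 1019 to 1859 CPM and from 1.92 to 5.47 CPM. The sum of the list, nearly all Acta1, was 1021 to 1556 CPM in females and 1059 to 1865 CPM in males. Male replicate 2 stood apart from the others on the first principal component, which held 52.7% of the variance. It lay at 74.8 against -49.0 to 23.1 in the other 7 libraries. The 10 endocardial markers summed to 658 to 776 CPM and the 8 erythroid markers to 4700.0 to 12459 CPM over the 8 libraries. Fold changes, ratios and correlations that moved with Male replicate 2 are also given without it.

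The start sites of 4 of these genes are shown first. The genes were picked from these data, where Celf1 and Qk varied together across the libraries and Celf2 and Ptbp1 varied in opposite directions. Whether the sequences bear on that covariation was not tested. The sequences are the 250 bases before a RefSeq transcription start on GRCm38.p6, printed 5′ to 3′ on the strand of the gene. Capitals mark the GC box, searched as GGGCGG and CCGCCC so that both strands are covered, with overlapping matches counted separately. Celf1 lies at chr2:90940147-90940396 on the plus strand, Qk at chr17:10319362-10319611 on the minus strand, and Ptbp1 at chr10:79854182-79854431 on the plus strand. Celf2 has 5 such windows, and the one shown, at chr2:6872036-6872285 on the minus strand, is the richest in CpG, with 43 against 3 to 7 in the others.
Celf1: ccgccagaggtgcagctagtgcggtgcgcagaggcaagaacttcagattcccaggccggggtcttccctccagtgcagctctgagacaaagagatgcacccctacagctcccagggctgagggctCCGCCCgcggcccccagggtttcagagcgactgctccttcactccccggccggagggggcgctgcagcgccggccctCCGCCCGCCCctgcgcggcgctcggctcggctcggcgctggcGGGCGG
Qk: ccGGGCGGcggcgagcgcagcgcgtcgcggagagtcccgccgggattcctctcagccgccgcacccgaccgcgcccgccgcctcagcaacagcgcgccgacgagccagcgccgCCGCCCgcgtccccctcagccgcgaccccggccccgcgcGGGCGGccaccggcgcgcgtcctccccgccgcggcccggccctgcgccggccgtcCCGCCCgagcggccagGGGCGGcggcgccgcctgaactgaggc
Celf2: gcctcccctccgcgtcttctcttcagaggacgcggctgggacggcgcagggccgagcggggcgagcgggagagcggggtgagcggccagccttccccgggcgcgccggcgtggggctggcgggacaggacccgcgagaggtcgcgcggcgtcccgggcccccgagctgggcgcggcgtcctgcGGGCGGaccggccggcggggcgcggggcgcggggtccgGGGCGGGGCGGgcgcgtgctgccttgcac
Ptbp1: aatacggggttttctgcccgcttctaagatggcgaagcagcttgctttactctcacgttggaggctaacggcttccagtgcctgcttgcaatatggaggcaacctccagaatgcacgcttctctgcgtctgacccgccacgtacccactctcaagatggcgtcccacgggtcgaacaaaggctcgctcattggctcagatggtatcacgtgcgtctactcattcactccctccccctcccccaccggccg

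The Qk window held 52 CpG dinucleotides and 5 GC boxes, the Celf2 window 43 and 3, the Celf1 window 24 and 4, and the Ptbp1 window 17 and 0. The median over 32851 windows of this length was 6 CpG, and 16 windows (0.0487%) held as many as Qk. A GC box stood in 32.7% of all windows and in 6 of the 14 windows of these genes. The CCAAT box, searched as CCAAT and ATTGG, stood in 33.8% of all windows and in 3 of the 14, among them that of Ptbp1. The TATA box, searched as TATAAA and TTTATA, stood in 12.4% of all windows and in 2 of the 14. These are matches of letters only. RefSeq windows were matched for 8 of the 10 genes, all but Rbm20 and Rbfox2.

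Levels of the 10 genes were compared per kilobase of exon, since longer genes gather more counts. Rbm24 had the highest level per kilobase, with a median of 64.1 CPM per kb over the 8 libraries. Its range was 55.1 to 71.2, above every other gene in every library. Celf1 (median 37.1 CPM per kb), Ptbp1 (32.2), Qk (27.9) and Rbfox2 (26.4) came next, and the ranges of neighbours in this order overlapped. Celf1 exceeded Ptbp1 in 6 of 8 libraries, Ptbp1 exceeded Qk in 7 and Qk exceeded Rbfox2 in 7. Mbnl2 (11.2) lay below Rbfox2 with no overlap and above Rbm20 (9.41) in 8 of 8 libraries, although those ranges overlapped. Celf2 (3.36) and Mbnl1 (2.73) followed, Celf2 being higher in 8 of 8 libraries with overlapping ranges. Rbfox1 had the lowest level, at 0.324 CPM per kb, from 19 to 80 counts per library. This order rests on the exon lengths used. In CPM, Celf1 and Qk had medians of 313 and 276, above Rbm24 at 206, and Rbm20 at 63.9 lay above Mbnl2 at 50.9.

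**Figure D1:**
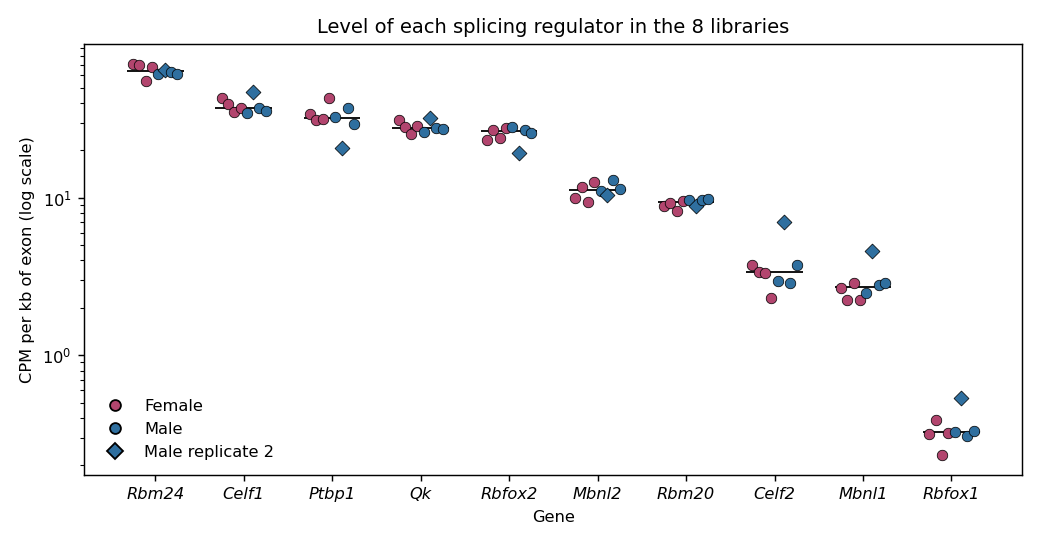
Level of each gene in CPM per kb of exon (vertical axis, log scale) in the 8 libraries. Points are libraries, coloured by sex, with Male replicate 2 as a diamond, and lines are medians. Rbm24 lies highest at a median of 64.1 and Rbfox1 lowest at 0.324, and Male replicate 2 stands away from the other libraries for Celf2, Mbnl1, Rbfox1, Rbfox2 and Ptbp1.

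The exon length is the union of the annotated exons in the deposited tables, which weighs on genes with many long exons. It was 25.884 kb for Celf2 (chromosome 2, 6539694 to 7509563, minus strand) and 18.717 kb for Mbnl1 (chromosome 3, 60472830 to 60629750, plus strand). It was 3.215 kb for Rbm24 (chromosome 13, 46418300 to 46431090, plus strand). Ptbp1 (chromosome 10, 79854427 to 79864771, plus strand) shares 251 exon bases with Plppr3 and 85 with E130317F20Rik on the opposite strand. These neighbours had 177 to 543 and 121 to 320 counts per library, against 2956 to 11134 for Ptbp1. No source used here names the strand setting of the counting, so reads of that overlap may not be told apart.

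The question of the study was how the sexes differ, and none of the 10 regulators passed that test. In edgeR's quasi-likelihood test of male minus female, 0 of 10 were called at an adjusted p below 0.05, against 0.0366% of all genes tested. An unadjusted p below 0.05 was reached by 0 of 10 (2.24% of all genes), male and female libraries were without overlap for 0 of 10 (2.25% of all genes), and DESeq2 and limma-voom each called 0 of 10. The adjusted p was 0.9995 for every member. The log2 fold change was above 0 for 6 of the 10 and below 0 for 4, with a median of 0.031 against 0.011 over all genes tested. With library size alone it was 5 and 5, and with RLE factors 7 and 3.

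Celf2, a Celf protein of heart, muscle and brain, stood at 96.9, 87.8, 86.3 and 59.5 CPM in the female libraries, here and below in the order of their replicate numbers. The male libraries stood at 77.0, 183, 74.8 and 96.7 CPM. Male replicate 2 was thus the highest library, and the other 3 male libraries lay within the female range. The log2 fold change was 0.39 ± 0.29 (SE, n = 4 each), and it was 0.0053 without Male replicate 2. In bulk tissue, a difference in the number of expressing cells and a difference in RNA per cell cannot be told apart.

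Mbnl1, a muscleblind protein that is trapped on expanded repeats in myotonic dystrophy, stood at 50.1, 42.0, 53.5 and 42.0 CPM in females. In males it stood at 46.8, 86.3, 51.9 and 53.9 CPM. Again Male replicate 2 was the highest library and the groups overlapped. The log2 fold change was 0.35 ± 0.19 (SE), the member with the smallest unadjusted p (0.0961, edgeR), and it was 0.12 without Male replicate 2. Its relative Mbnl2 (chromosome 14, 120275669 to 120431697, plus strand) showed no such library, running from 42.9 CPM in Female replicate 3 to 58.9 CPM in Male replicate 3.

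Ptbp1, the repressor of muscle and neuronal exons, stood at 162, 148, 150 and 203 CPM in females and 155, 98.3, 177 and 139 CPM in males. Its highest library was Female replicate 4 and its lowest Male replicate 2. The log2 fold change was -0.22 ± 0.18 (SE). It was -0.079 without Male replicate 2 and -0.11 without Female replicate 4.

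Rbfox2 (chromosome 15, 77078990 to 77307053, minus strand), the more abundant of the Rbfox pair, stood at 171, 198, 176 and 204 CPM in females. It stood at 208, 142, 197 and 191 CPM in males. The lowest library was Male replicate 2, and the other 7 libraries lay within 1.21-fold of each other. The log2 fold change was -0.024 ± 0.13 (SE), and 0.083 without Male replicate 2.

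Celf1 (chromosome 2, 90940382 to 91019497, plus strand) stood at 364, 331, 295 and 312 CPM in females and 291, 395, 314 and 299 CPM in males. Qk (chromosome 17, 10206471 to 10319361, minus strand), whose loss is known to kill mouse embryos at midgestation with vascular defects, stood at 308, 278, 252 and 283 CPM in females. In males Qk stood at 259, 318, 274 and 272 CPM. For both genes Male replicate 2 was highest and Female replicate 1 next. Their log2 fold changes between the sexes were -0.0025 ± 0.12 and 0.0026 ± 0.10 (SE), and the sign of each differed between alternatives.

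Rbm20 and Rbm24 varied little, and Rbm20 had the smallest ratio of highest to lowest library among the 10 genes. Qk, described above, had the next smallest ratio, 1.26, below that of Rbm24. Rbm20 (chromosome 19, 53677306 to 53867080, plus strand), mutated in a familial dilated cardiomyopathy, ran from 55.9 CPM in Female replicate 3 to 67.1 CPM in Male replicate 4. Its highest value was 1.20 times the lowest, and 88.3% of the 9242 genes with a mean of at least 10 CPM had a larger ratio. Rbm24 ran from 177 CPM in Female replicate 3 to 229 CPM in Female replicate 1, a ratio of 1.29 that 71.6% of those genes passed. Their log2 fold changes were 0.088 ± 0.078 and -0.074 ± 0.098 (SE). That of Rbm20 was 0.050 without Female replicate 3, and that of Rbm24 was -0.15. Leaving out Female replicate 1 or Female replicate 2 gave -0.031 or -0.044 for Rbm24. Rbfox1 (chromosome 16, 6809222 to 7412479, plus strand), the Rbfox gene of mature muscle and neurons, ran from 0.962 CPM in Female replicate 3 to 2.21 CPM in Male replicate 2, with a log2 fold change of 0.24 ± 0.25 (SE) that was 0.015 without Male replicate 2.

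**Figure D2:**
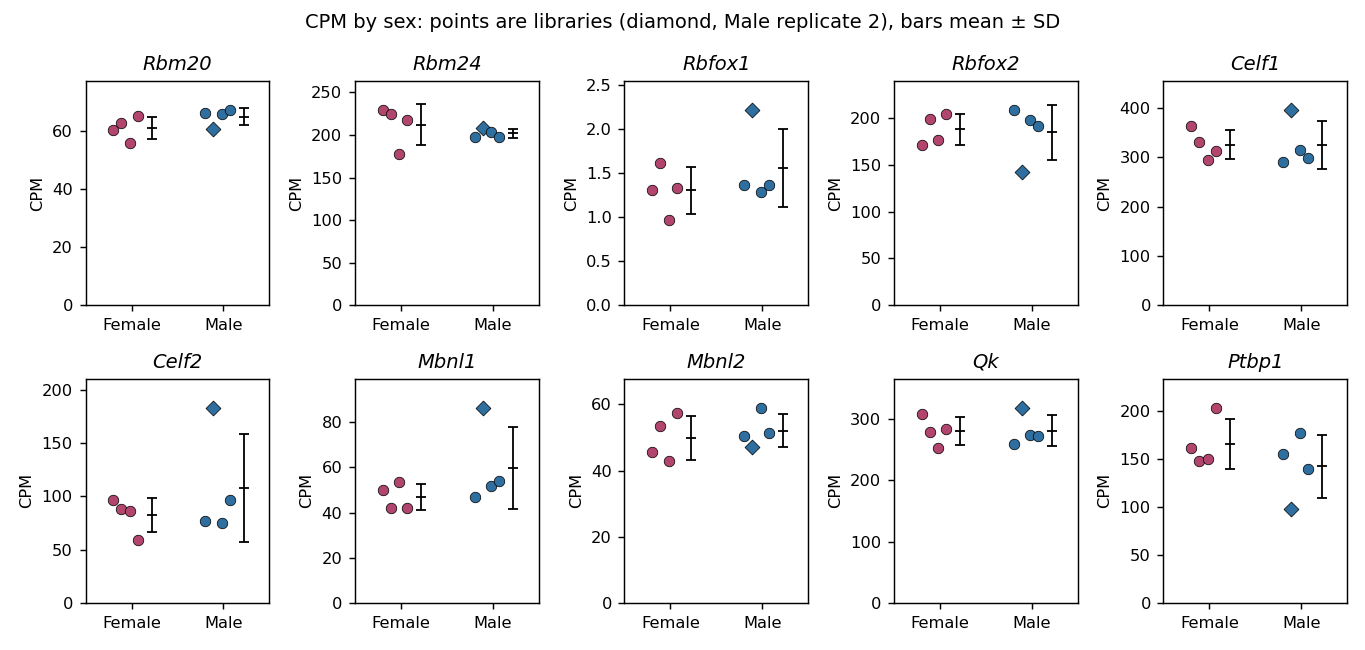
CPM of the 10 genes in female and male libraries. Points are libraries (Male replicate 2 as a diamond) and bars are the mean ± SD of 4 libraries. Male and female points overlap for every gene, and Male replicate 2 is the highest library for Celf2 at 183 CPM and the lowest for Ptbp1 at 98.3 CPM.

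Celf2 varied more between libraries than most genes. Its highest value was 3.08 times its lowest, and 2.45% of the 9242 genes with a mean of at least 10 CPM had a larger ratio. Without Male replicate 2 the ratio was 1.63. Ptbp1 varied 2.07-fold and Mbnl1 2.05-fold, which 12.9% and 13.3% of those genes passed, and without Male replicate 2 their ratios were 1.46 and 1.28. Against the median of the other 7 libraries, Male replicate 2 was 2.12-fold for Celf2, 1.72-fold for Mbnl1, 0.717-fold for Rbfox2 and 0.633-fold for Ptbp1. A distance as large as that of Celf2 was seen for 3.37% of those genes, and of Rbfox2 for 32.8%.

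Other values moved with that library. Male replicate 2 had the highest sum of cardiomyocyte markers, 74710 CPM, and 10 of the 12 were highest there. Actc1 and Smyd1 stood at 11061 and 449 CPM there and were highest in Female replicate 2, at 13075 and 545 CPM. Male replicate 2 also had the lowest mitochondrial share, 0.707% against 0.999% to 1.72% in the others. The 12 foregut epithelium markers, a list for neighbouring tissue, summed to 694 CPM there and to 314 to 573 CPM elsewhere. Most of that sum was Krt8 (311 CPM), Krt18 (196 CPM) and Krt19 (134 CPM), and 8 of the 12, Epcam and Foxa2 among them, were highest in Female replicate 1, with Shh at 0 counts in Male replicate 1. The 8 hepatic markers summed to 35.4 CPM there and to 77.4 CPM in Female replicate 1, and to 2.47 to 18.5 CPM elsewhere, with Alb, Apoa4, Serpina1a and Apob at 0 in some libraries. The 8 neural markers summed to 425 CPM there, against 243 to 290 CPM in the other 7, and nearly all of it was Nes, at 410 CPM. Tubb3 stood at 4.40 CPM there and reached 20.3 CPM in Male replicate 3, Sox2 was highest in Female replicate 1, and Neurog1 and Neurog2 were at 0 in some libraries. Their part in the values of the splicing regulators was not tested.

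Ratios of related genes remove what is common to both and show which relative supplied more RNA. For Rbfox, the minor gene gave 0.0056 to 0.0082 counts per count of Rbfox2 in 7 libraries and 0.0157 in Male replicate 2. For Celf, the ratio of Celf2 to Celf1 counts was 0.266, 0.266, 0.292 and 0.191 in the female libraries and 0.265, 0.463, 0.238 and 0.323 in the male libraries. Per kilobase, Celf2 was at a median of 0.0868 of Celf1, with a range of 0.0622 to 0.151, so Celf1 supplied more RNA in every library. For Mbnl, the ratio of Mbnl2 to Mbnl1 counts was 0.909, 1.27, 0.802 and 1.36 in females and 1.08, 0.547, 1.14 and 0.955 in males. By counts the order of the pair thus differed between libraries, with a median ratio of 1.02. Per kilobase Mbnl2 was higher in all 8, at a median of 4.18 times Mbnl1 and a range of 2.25 to 5.61. That order depends on the union exon length, 18.717 kb for Mbnl1 and 4.552 kb for Mbnl2. Which of the pair supplied more RNA is therefore not settled by these counts.

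A further pair of ratios set members against relatives outside the list. Ptbp2, the neuronal relative whose message Ptbp1 is known to keep low, stood at 0.423 to 0.607 counts per count of Ptbp1 in 7 libraries and at 0.791 in Male replicate 2. Ptbp2 itself ran from 72.6 to 98.4 CPM, a narrower range than that of Ptbp1. Rbm38, a close relative of Rbm24, stood at 0.818 to 1.16 counts per count of Rbm24 in 7 libraries and at 0.575 in Male replicate 2.

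**Figure D3:**
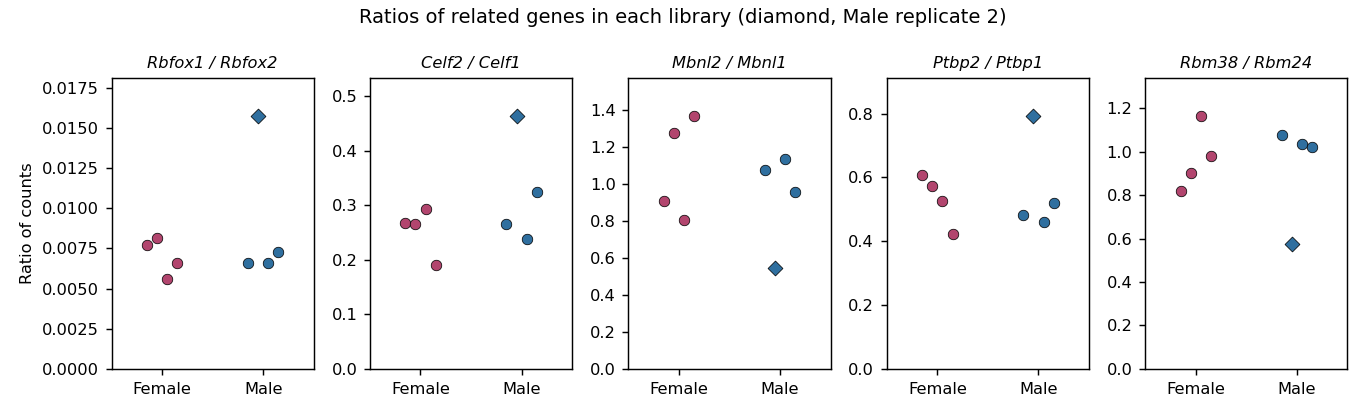
Ratio of counts of the first gene to the second (vertical axes start at 0) in female and male libraries, with 1 point per library. Male replicate 2, the diamond, is the highest library for Rbfox1 / Rbfox2 (0.0157), Celf2 / Celf1 (0.463) and Ptbp2 / Ptbp1 (0.791) and the lowest for Mbnl2 / Mbnl1 (0.547) and Rbm38 / Rbm24 (0.575).

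None of the 5 ratios differed between the sexes by an exact 2-sided permutation test over the 70 divisions of the libraries. The male minus female difference of the log2 ratio was 0.27 for Rbfox1 over Rbfox2 (exact p = 0.543), 0.31 for Celf2 over Celf1 (exact p = 0.371) and -0.25 for Mbnl2 over Mbnl1 (exact p = 0.486). It was 0.058 for Ptbp2 over Ptbp1 (exact p = 0.857) and -0.092 for Rbm38 over Rbm24 (exact p = 0.83). All 5 had an adjusted p of 0.857 in this exact test. The differences without Male replicate 2 were -0.027 for Rbfox1 over Rbfox2, 0.12 for Celf2 over Celf1 and -0.012 for Mbnl2 over Mbnl1. For Ptbp2 over Ptbp1 and Rbm38 over Rbm24 they were -0.12 and 0.12. The smallest p the test can give is 0.0286, and a ratio alone at that p would have an adjusted p of 0.143, so a difference in a single ratio could not have passed.

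Across the 8 libraries taken as a single set, some regulators varied together and others in opposite directions. Of 45 pairs, 6 (13.3%) had a Pearson r of log2 CPM of at least 0.8 in either direction, against 15.6% of all pairs of tested genes, a share near that background. Without Male replicate 2 it was 4 pairs (8.89%), against 9.18% of all pairs. Celf1 and Qk had the strongest positive relation, with r = 0.945 (exact permutation p = 0.00057, adjusted p = 0.0257 over the 45 pairs) and Spearman's rho = 0.905 (exact p = 0.00456, adjusted p = 0.205). The r was 0.91 without Male replicate 2 and 0.75 without the 2 libraries farthest from the median of Celf1.

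Celf2 and Ptbp1 had the strongest negative relation, with r = -0.958 (exact permutation p = 0.00198, adjusted p = 0.0446) and rho = -0.762 (exact p = 0.0368, adjusted p = 0.276). The r was -0.861 without Male replicate 2 and -0.595 without the 2 libraries farthest from the median of Celf2, so its strength rests in part on these. These were the 2 pairs with an adjusted p below 0.05 by Pearson's r in this exact test, and no pair had one by rho. With 7 libraries the adjusted p ran from 0.0179 to 0.205 for Celf1 with Qk and from 0.00893 to 0.223 for Celf2 with Ptbp1 in the exact test. For both pairs it was highest without Male replicate 2. Of the relations of Rbfox2, r was -0.909 with Celf2 and -0.894 with Mbnl1 (exact permutation p = 0.00451 and 0.0108, adjusted p = 0.0677 and 0.115, rho = -0.786 and -0.762). Without Male replicate 2 they were -0.656 and -0.573.

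No pair of relatives passed. The r between Mbnl1 and Mbnl2 was -0.42 (exact permutation p = 0.324, rho = -0.429) and that between Rbfox1 and Rbfox2 was -0.508 (exact permutation p = 0.203, rho = -0.0238). Celf1 and Celf2 had r = 0.749 (exact permutation p = 0.0328, rho = 0.571), which was 0.299 without Male replicate 2. Their adjusted p over the 45 pairs was 0.503, 0.349 and 0.146 in the exact test. Without Male replicate 2, Rbm24 joined Celf1 and Qk, with r = 0.817 and 0.881, against 0.574 and 0.696 over all 8 libraries (exact permutation p = 0.141 and 0.0551, rho = 0.786 and 0.833).

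**Figure D4:**
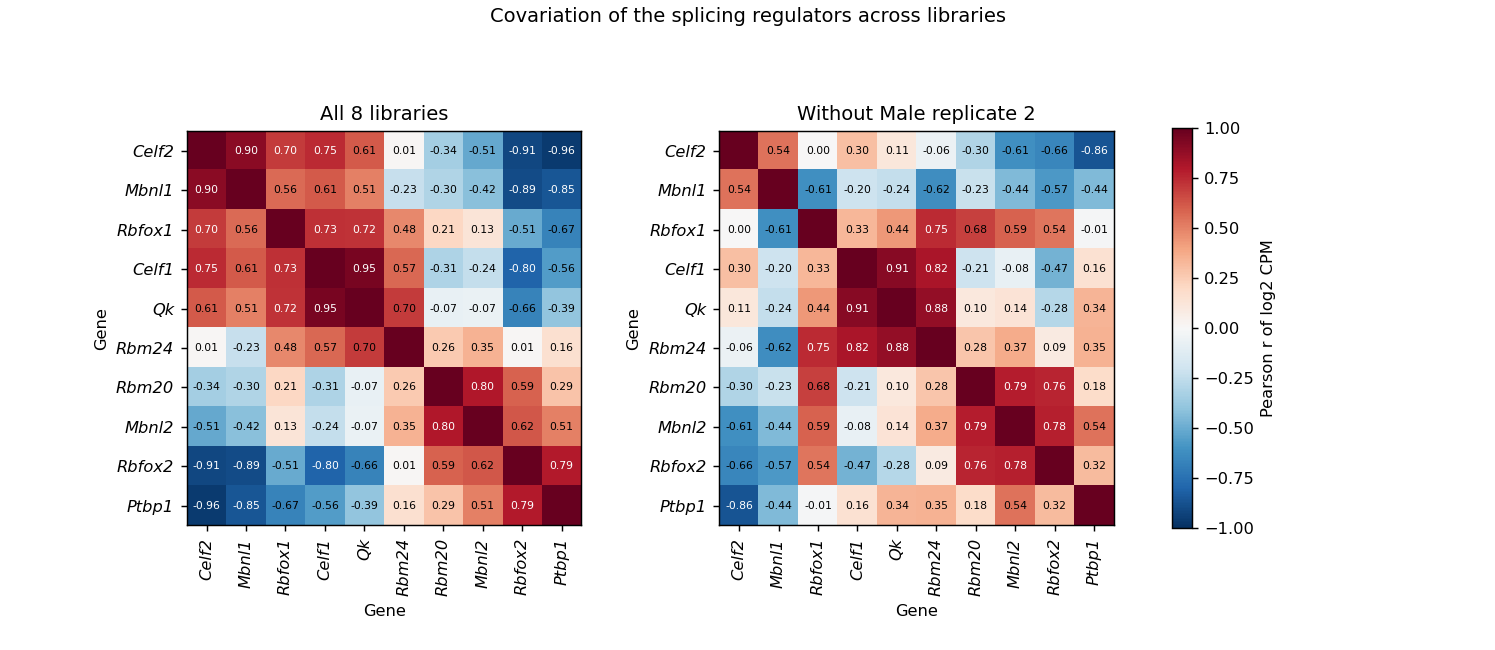
Pearson r of log2 CPM for each pair of genes over all 8 libraries (left) and without Male replicate 2 (right), from blue at -1 to red at 1. Celf2 with Ptbp1 (-0.958 and -0.861) and Celf1 with Qk (0.945 and 0.91) keep strong values in both panels, while Celf2 with Mbnl1 goes from 0.9 to 0.542.

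The libraries also differed in a trend with gene length. For each library, the length slope is the change in log2 CPM, relative to the mean of all libraries, per doubling of exon length over all tested genes. Male replicate 2 had the lowest slope, -0.105, and Female replicate 4 the highest, 0.106. Celf2 had r = -0.916 with this slope (exact permutation p = 0.000868, adjusted p = 0.0174 over 20 relations, rho = -0.857). Ptbp1 had r = 0.897 (exact permutation p = 0.00414, adjusted p = 0.0276, rho = 0.738) and Rbfox2 r = 0.869 (exact permutation p = 0.00322, adjusted p = 0.0276, rho = 0.857). The other 7 genes did not pass, nor did any relation to the GC slope, the same measure for GC content, where the smallest adjusted p by exact permutation was 0.404.

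Without Male replicate 2 these values of r were -0.933, 0.835 and 0.78, and none passed with 7 libraries (adjusted p = 0.0833, 0.119 and 0.16 by exact permutation). Without the 2 libraries farthest from the median slope they were -0.833, 0.58 and 0.819. By rho, none of the 20 relations passed (smallest adjusted p = 0.103, exact permutation). A slope below 0, as in Male replicate 2, means that longer genes stood lower there on average. Celf2, at 25.884 kb of annotated exons the longest of the 10 genes, was highest in that library. The slope is an average over all tested genes and does not give the value of a single gene. The relations to the slope were chosen after seeing the data. The part of the length trend in the differences between libraries was not tested.

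**Figure D5:**
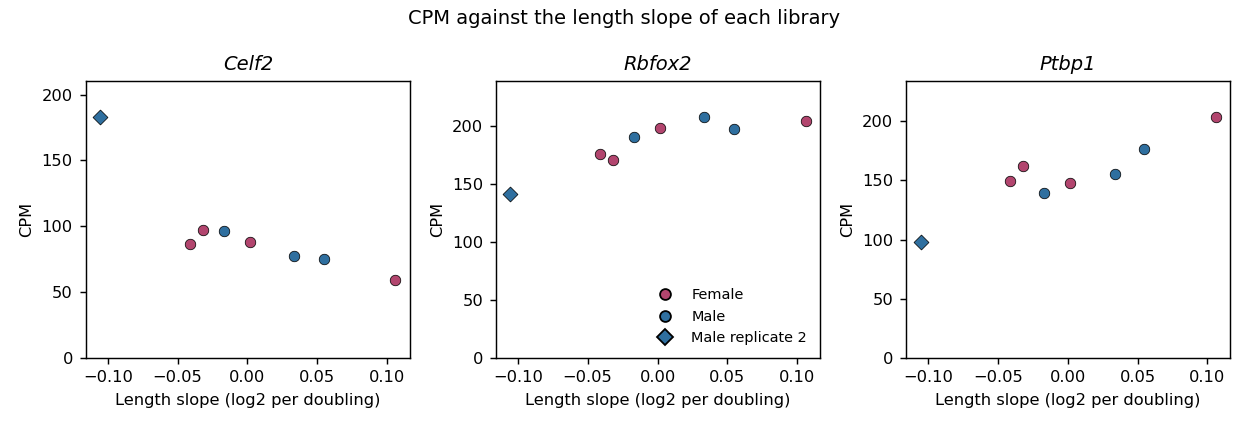
CPM of Celf2, Rbfox2 and Ptbp1 (vertical axes, from 0) against the length slope of each library (horizontal axis, log2 per doubling of exon length). Points are libraries. Celf2 is highest, and Rbfox2 and Ptbp1 lowest, in Male replicate 2 at a slope of -0.105, while Female replicate 4 at 0.106 has the lowest Celf2 and the highest Ptbp1.

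The genes most like each regulator were read from tested genes with a mean of at least 10 CPM, by Pearson r over the 8 libraries. Genes with a predicted name (Gm or Rik) were left out. Celf2 was followed by Usp2 (r = 0.998) and Pdgfa (0.995), and Ptbp1 by Rfk (0.995) and Ncbp3 (0.995). Rbfox2 was followed by Nid2 (0.99) and Grb14 (0.989), Mbnl1 by Ip6k1 (0.989) and Jund (0.985), Celf1 by Smc3 (0.991) and Bclaf1 (0.986), and Qk by Rif1 (0.987) and Ctif (0.965). Mbnl2 was followed by Rnf115 (0.972) and Pdha1 (0.959), Rbfox1 by Coa5 (0.948) and Senp8 (0.945), Rbm24 by Chml (0.954) and Katnbl1 (0.946), and Rbm20 by Nedd4l (0.936) and Mia3 (0.929). These values are descriptions of the same 8 libraries, and without Male replicate 2 the r of the same genes ran from 0.868 for Senp8 to 0.992 for Usp2. Genes with r of at least 0.9 numbered 1408 of 9032 for Celf2, 1148 for Rbfox2 and 1083 for Ptbp1. They numbered 296 for Mbnl1, 92 for Celf1 and 28 each for Mbnl2 and Qk. The fewest were 11 for Rbm24, 10 of 9033 for Rbfox1 and 6 for Rbm20.

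Other splicing genes did not pass the sex test either. Of the relatives of the regulators, 0 of 8 tested were called by edgeR, as were 0 of 13 SR proteins, which mostly promote exon use, and 0 of 27 core spliceosome genes (0 with an unadjusted p below 0.05 in each list). Of the hnRNP proteins, which mostly hold exons back, 0 of 23 were called and 1 had an unadjusted p below 0.05. Of the other tissue-restricted regulators it was 0 of 12 and 1, and of the 10 genes known as Rbm20 targets 0 and 1. These single genes were Hnrnph3 (log2 fold change -0.24), Elavl3 (0.72) and Ttn (0.91), the first 2 named after their values were seen. Over all genes tested, edgeR called 0.0366%, and 2.24% had an unadjusted p below 0.05. DESeq2 and limma-voom called 0 in each of these lists. Log2 fold changes of male minus female were above 0 for 2 of 8 relatives and 12 of 27 core spliceosome genes. They were above 0 for 7 of 12 tissue-restricted regulators and 8 of 10 Rbm20 targets. With library size alone they were above 0 for 6 of 27 core spliceosome genes and 5 of 12 tissue-restricted regulators, and without Male replicate 2 for 8 of 27 and 5 of 12. They were below 0 for 21 of 23 hnRNP genes (median -0.17) and 12 of 13 SR genes (-0.14), against 7711 of 16377 genes tested (0.011). Without Male replicate 2 the counts were again 21 and 12, with medians of -0.083 and -0.095, and with library size alone they were 23 and 12. Most genes of both lists were highest in Female replicate 1 or Female replicate 4, and these counts were not taken without those libraries. Genes that move together by library are not independent of each other. In Male replicate 2, 20 of 23 hnRNP genes and 11 of 13 SR genes lay below the median of the other libraries, as did 8421 of 16377 genes overall.

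The members of these lists with the most counts were Hnrnpa1 (female mean 1187 ± 53.7 CPM, male mean 1019 ± 134 CPM, with SD over 4 libraries each and in this order below) and Hnrnpa2b1 (1204 ± 77.2 and 1064 ± 209 CPM). For the SR proteins they were Srsf3 (624 ± 71.5 and 567 ± 46.1 CPM) and Srsf1 (445 ± 36.6 and 378 ± 54.0 CPM). For the core spliceosome they were Snrnp70 (534 ± 62.1 and 557 ± 72.8 CPM) and Snrpd2 (415 ± 96.6 and 513 ± 290 CPM). Matr3, a nuclear matrix protein related to Rbm20, stood at 332 ± 20.7 and 303 ± 19.5 CPM, and Rbm38 at 203 ± 11.1 and 186 ± 44.6 CPM. Among the transcripts that Rbm20 is known to splice, Ldb3, a Z-disc protein, stood at 301 ± 30.4 and 326 ± 35.2 CPM. Ttn stood at 636 ± 158 and 1193 ± 231 CPM, with no overlap between the sexes and an adjusted p of 0.9995 (edgeR). The sexes were also without overlap for 2 of 23 hnRNP genes and 1 of 12 tissue-restricted regulators. Over all genes tested the share was 2.25%. Rbm20 itself was at 60.9 ± 3.92 and 64.8 ± 2.87 CPM, and a relation of Ttn to Rbm20 was not tested.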

How the data were processed

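RNA of embryonic hearts was measured in 8 libraries. The submitters' processing notes name GRCm38 (mm10), featureCounts, Subread 1.5.2, STAR 2.5.2b and Trimmomatic 0.36, without their order. The deposited values are raw counts per gene in whole numbers, not normalized by the authors. The series table and the tables per library held the same counts (0 cells differed), and 0 columns were of other samples. Symbols were found for 48970 of 49315 gene identifiers. The deposited normalized table was not used here.

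The quasi-likelihood test of edgeR 4.0.16 (R 4.3.3, robust, 2-sided) compared male with female libraries without covariates. It used TMM factors and genes kept by filterByExpr at 10 counts or more, with Benjamini-Hochberg adjustment over 16377 genes. Standard errors come from the F statistic of that test. CPM values are counts scaled by total and TMM factor, and 0.5 was added to counts before logs and ratios. Ratios and correlations were tested by exact permutation over libraries in Python 3.11.15 with numpy 2.4.6. GC content came from GENCODE transcripts. The fit was tested on simulated data. Alternatives were DESeq2 1.42.0, limma-voom (limma 3.58.1), RLE factors, library size alone, other filters, a threshold of 0.01, the replicate number as a block, 1 count added to the ratios, an r limit of 0.9, deviations from the mean of each sex, and libraries left out.

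The members, lists and tests were chosen with earlier results of these data known. The genes named are all 10 members, the genes of the 5 ratios, the called members and the 2 most abundant of each further list described, and the 2 genes most like each member. The relations to length and GC slope, and genes said to be chosen after their values were seen, were added after seeing the data. Marker lists are given by their sums.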

Additional observations from a re-analysis of the deposited data

Results flagged for a closer look

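In 3 of the 30 groups of 4 libraries examined (10 genes and 5 ratios, in each sex), a single library lay far from the others relative to the range of the group, which chance gives in about 5% of groups. All 3 were Male replicate 2. Rbfox1 stood there at 2.21 CPM, against 1.28 to 1.37 CPM in the other males. The ratio of Rbfox1 to Rbfox2 counts was 0.0157, against 0.0066 to 0.00725. The ratio of Rbm38 to Rbm24 counts was 0.575, against 1.02 to 1.08. The groups share libraries and genes and are not independent of each other.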

How the results depend on the processing

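No member was called for sex under any alternative run (0 of 10 each time), and the count of genes called over the whole table, 6, ran from 5 to 9. The adjusted p of the 10 members ran from 0.835 to 1.00. Signs of values near 0 did change. The log2 fold change of Celf1 was 0.0053 with RLE factors, 0.0080 with the filter at 1 CPM and -0.11 to 0.061 with a library left out. That of Qk was -0.038 with library size alone, -0.021 without a filter, -0.017 without Female replicate 1 and Male replicate 2, and -0.063 to 0.056 with a library left out. That of Rbfox2 was 0.039 without those 2 libraries and -0.086 to 0.083 with a library left out, and that of Mbnl2 -0.0059 to 0.13. With a library left out, the log2 ratio difference between the sexes ran from -0.027 to 0.39 for Rbfox1 over Rbfox2, 0.12 to 0.44 for Celf2 over Celf1, -0.38 to -0.012 for Mbnl2 over Mbnl1, -0.12 to 0.14 for Ptbp2 over Ptbp1 and -0.18 to 0.12 for Rbm38 over Rbm24. Without both libraries the last 2 were -0.050 and 0.048. The count of 6 pairs of members past an r of 0.8 was 10 with library size alone, 12 with deviations from the mean of each sex, and 4 to 13 with a library left out, with 13 without Female replicate 3 and 10 without Male replicate 4. The cause was not tested. The share over all pairs of tested genes was taken only for all libraries (15.6%) and without Male replicate 2 (9.18%). The counts under the other settings therefore have no background beside them. By the exact test, 5 pairs had an adjusted p below 0.05 with library size alone, where Celf1 with Qk did not pass (r = 0.831, adjusted p = 0.0631), and 5 with deviations from the mean of each sex. With 7 libraries 0 or 1 pair passed.

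Whether the replicate numbers pair the libraries is not stated in the labels. Deviations from the group means of same-numbered females and males correlated at -0.409, -0.0819, -0.321 and -0.0268. These values are shaped by the largest differences between libraries and cannot exclude a pairing. With the replicate block 5 genes and 0 of 10 members were called, and the smallest p of the paired ratio test is 0.125. Rbfox1, with 19 to 80 counts per library, is the member whose level depth limits.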

Other observations

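The genes in the next sentences fall outside the naming rule and were chosen after their values were seen. Esrp1, a splicing regulator of epithelia, had a median of 1.3 CPM and its highest value, 7.85 CPM, in Female replicate 1, the library with the highest sum of hepatic markers. Rbm47, another epithelial regulator, was also highest there, at 1.71 CPM against a median of 0.776 CPM. Nova1, known from neurons, had a median of 18.3 CPM and was highest in Male replicate 2 at 36.5 CPM.

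Srsf4, an SR protein, stood lowest in Male replicate 2, with 2.65 CPM there, a median of 12.0 CPM and 24.9 CPM in Female replicate 4. Srsf11 and the core spliceosome gene Snrpg stood the other way, with 491 and 400 CPM in Male replicate 2 and their lowest values, 194 and 128 CPM, in Female replicate 4. Rbpms and Rbpms2, RNA-binding proteins of cardiac muscle, varied little, from 274 to 294 CPM and from 202 to 222 CPM over the 8 libraries. These values were not tested against each other.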
